A study of Homo sapiens with 8 samples.

Results

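AP-1 and immediate early genes were examined in Panc 10.05, a line of human pancreatic ductal adenocarcinoma cells long kept in culture. The 10 genes were chosen by symbol, with earlier results of these data known: FOS, FOSB, FOSL2, JUN, JUNB, JUND, EGR1, ATF3, IER2 and IER3. Each matched 1 of the 58870 gene rows of the deposited table, and all 10 were among the 13860 genes with enough counts to test. RNA sequencing covered 8 libraries, 4 from cells labelled control and 4 from cells labelled as overexpressing ELAPOR1, a membrane protein of endosomes and lysosomes. The labels do not give the means of overexpression, any promoter or vector, or what the control cells carried. They also do not say whether either line was a clone or a pool, or whether replicates were separate cultures. The p-values therefore measure the spread between these libraries, which may be technical. The series asks whether ELAPOR1 moves pancreatic cancer cells toward the classical/progenitor subtype and changes their metabolism.

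AP-1 is a dimeric transcription factor built from JUN proteins (JUN, JUNB, JUND), which pair with each other or with FOS proteins (FOS, FOSB, FOSL1, FOSL2) and with ATF proteins such as ATF3. Immediate early genes are transcribed within minutes of growth factor, stress or cytokine signals without new protein synthesis, through serum response factor with its ETS partners and through CREB and ATF factors, and their transcripts are short-lived. In pancreatic cancer cells, RAS and MAP kinase signalling feeds this system continuously.

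Libraries held 13765509 to 18128757 expected counts. ELAPOR1 had 1 to 4 counts in control and 5910 to 7368 in overexpressing libraries, so all 8 matched their labels (427 CPM apart, exact two-sided permutation p = 0.0286, the smallest that 4 against 4 can give). Defining epithelial markers were abundant, with EPCAM at 634 CPM and KRT19 at 471 CPM in control libraries. Summed over the 6 epithelial genes listed, the level was 11900 to 13200 CPM in control and 11200 to 11500 CPM in ELAPOR1 libraries. KRT8 and KRT18 fell, KRT7, KRT19 and CDH1 rose (edgeR adjusted p under 0.05), and EPCAM did not pass. The fibroblast genes COL1A2, DCN and LUM and the endothelial genes CDH5 and CLDN5 had no count in any library, and the leukocyte gene CD3E likewise had none. Summed over the 6 genes of each list, fibroblast markers were at 2.95 to 4.32 CPM in control and 2.71 to 3.19 CPM in ELAPOR1, endothelial markers at 1.65 to 2.13 and 0.576 to 0.998 CPM, and leukocyte markers at 89.0 to 96.1 and 81.1 to 87.8 CPM. The leukocyte sum was mostly CD68, a lysosomal protein, at 84.4 and 75.7 CPM, with CSF1R at 7.21 and 8.12 CPM, while COL1A1 reached at most 77 counts and VWF at most 32, and VWF fell (log2 fold change -1.14, edgeR adjusted p = 0.0019). The part of these markers in the results was not tested. Control replicate 1 differed most from the other control libraries, by a chi-square of 3.43 to 6.12 per gene where sampling noise gives about 1, against 2.14 to 3.02 among the other control libraries and 1.94 to 2.22 among ELAPOR1 libraries. Without it, the log2 fold change of no member moved by more than 0.05.

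Of the 10 genes, 9 differed between the groups, 6 higher and 3 lower in ELAPOR1 libraries (edgeR quasi-likelihood test, Benjamini-Hochberg adjusted p under 0.05 over all tested genes). Changes of this kind were common in these data: 44.7% of all tested genes passed, 22.6% higher and 22.1% lower, and 51.4% passed among those that averaged 5 CPM or more, as all 10 genes did. A change of at least 1.5-fold that passed was found for 3 of the 10 (FOSB, JUN and EGR1) and for 7.07% of tested genes. FOSB, JUN, EGR1, FOS, ATF3 and FOSL2 rose, in that order of size. IER3, JUNB and IER2 fell, and JUND did not pass. The median log2 fold change of the 10 genes was 0.30, against 0.00087 over all tested genes, and the median size of the change was 0.38 against 0.18. The libraries of the groups did not overlap for the 9 genes that passed, as for 39.2% of all tested genes. Because the genes were chosen with earlier results known, these contrasts with all tested genes describe the 10 genes and are not a test. CPM here means counts per 1e6 counts scaled by TMM, and in bulk RNA a change in the number of cells that express a gene cannot be told apart from a change in RNA per cell.

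**Figure D1:**
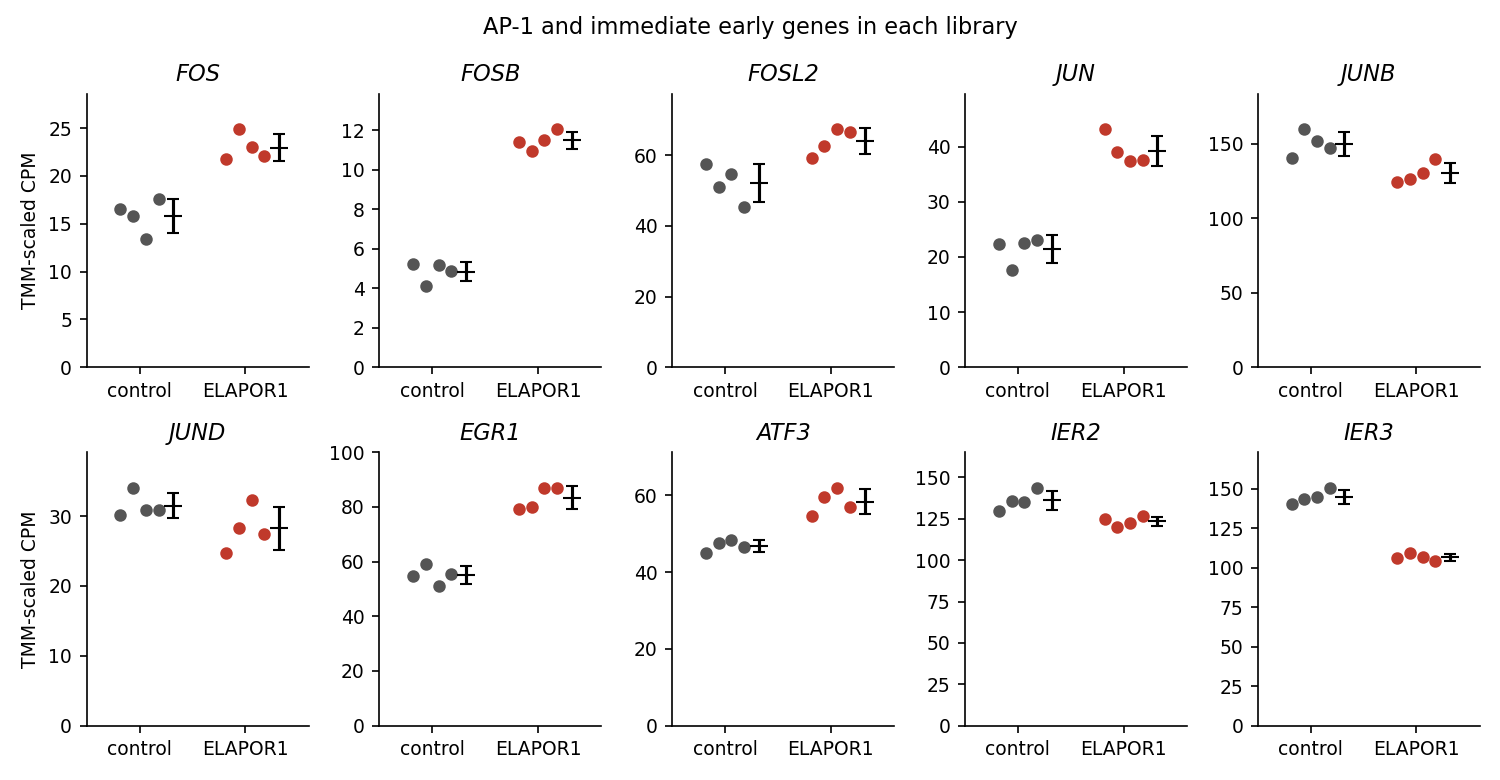
TMM-scaled CPM (vertical axes, each from 0) of the 10 genes in the 4 control and the 4 ELAPOR1 libraries (points, in the order of the replicate numbers), with mean and SD beside them. JUND is the panel in which the groups overlap.

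**Figure D2:**
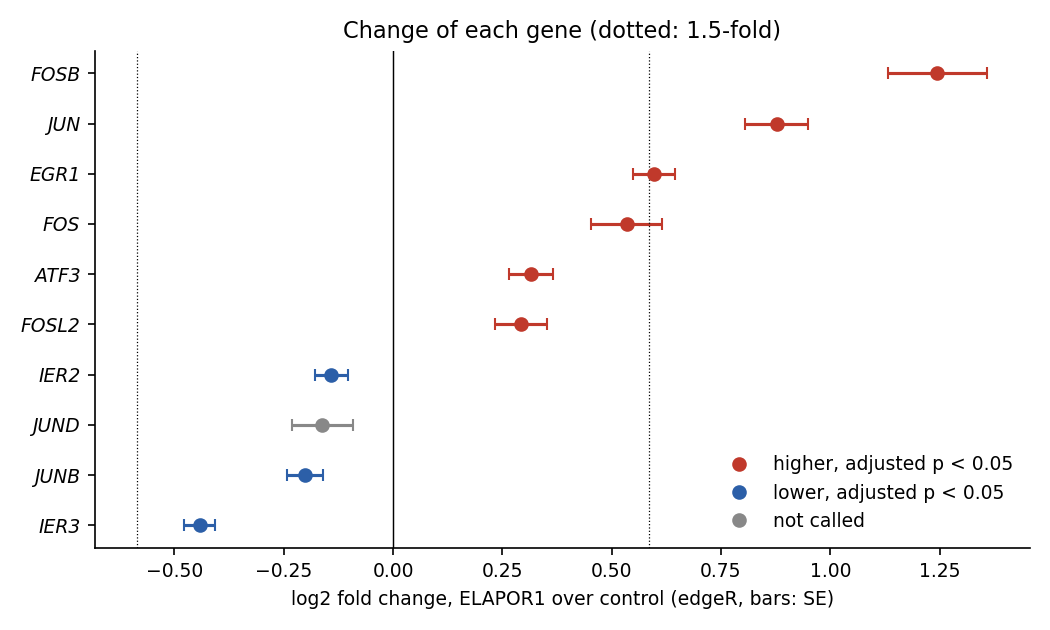
Log2 fold change of ELAPOR1 over control for each gene (points) with its standard error (bars), from edgeR. FOSB and JUN lie farthest to the right, at 1.25 and 0.88, and IER3 farthest to the left, at -0.44.

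The proximal promoters are shown for 4 genes, 3 that rose and JUNB, which fell, because immediate early promoters are known for serum response elements (the CArG box, read by serum response factor) and cyclic AMP response elements (core TGACGT, read by CREB and ATF factors). Sequences run 5′ to 3′ on the gene's strand from 250 bases before the RefSeq start (GRCh38.p14) up to that start, or to the GENCODE gene start where that lies farther upstream. Capitals mark a CArG box or TGACGT on either strand, so that ACGTCA is TGACGT on the other strand.
EGR1, chr5:138465229-138465478, plus strand: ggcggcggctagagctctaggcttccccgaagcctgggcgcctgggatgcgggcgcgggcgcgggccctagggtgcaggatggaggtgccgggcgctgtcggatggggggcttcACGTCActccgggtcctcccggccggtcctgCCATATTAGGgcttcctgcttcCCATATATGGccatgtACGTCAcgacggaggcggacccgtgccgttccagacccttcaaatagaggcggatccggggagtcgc
FOS, chr14:75278578-75278773, plus strand: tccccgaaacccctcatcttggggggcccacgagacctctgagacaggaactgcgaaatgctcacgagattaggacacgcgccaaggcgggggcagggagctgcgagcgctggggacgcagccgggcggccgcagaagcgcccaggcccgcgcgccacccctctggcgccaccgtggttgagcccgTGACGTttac
FOSB, chr19:45467746-45467994, plus strand: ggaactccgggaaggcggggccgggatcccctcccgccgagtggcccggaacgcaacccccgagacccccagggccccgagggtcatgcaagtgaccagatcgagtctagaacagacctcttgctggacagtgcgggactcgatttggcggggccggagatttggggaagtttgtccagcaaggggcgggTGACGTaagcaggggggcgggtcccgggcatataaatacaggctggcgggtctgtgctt
JUNB, chr19:12791236-12791485, plus strand: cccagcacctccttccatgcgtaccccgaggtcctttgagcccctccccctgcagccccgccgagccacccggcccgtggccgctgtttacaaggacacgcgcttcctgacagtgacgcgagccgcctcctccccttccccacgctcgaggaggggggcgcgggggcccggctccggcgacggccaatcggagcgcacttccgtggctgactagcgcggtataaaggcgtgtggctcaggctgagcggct
RefSeq promoters were found for 9 of the 10 genes (not IER3). Only the first listed RefSeq start of each gene was read. That of ATF3 lies near the 5′ end of a long gene, and any start farther along it was not read. In the 250 bases before the start, EGR1 held 2 CArG boxes, CCATATTAGG and CCATATATGG, and was the 1 gene of 9 with any, against 1.16% of 35116 RefSeq promoters. TGACGT occurred in 5 of the 9, EGR1, FOS, FOSB, FOSL2 and JUND, against 7.10% of all promoters. The AP-1 element TGANTCA, with N for any base, occurred in 0 of the 9, against 6.57%. Of the 5 genes with TGACGT, 4 rose and JUND did not pass the test, while JUN and ATF3 rose with none in this window. These are matches of letters in a short window and not measured sites. Bases farther upstream were not searched, so a gene without a match here may hold one there.

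FOSB rose most. It encodes a FOS family subunit and lies on chromosome 19 from 45467995 to 45475179 (GRCh38, plus strand). Its level was 5.21, 4.13, 5.15 and 4.88 CPM in the control libraries and 11.4, 11.0, 11.5 and 12.1 CPM in the ELAPOR1 libraries. Every ELAPOR1 library lay above every control library by a wide margin. The means were 4.84 ± 0.497 and 11.5 ± 0.443 CPM (SD, n = 4 each), and the log2 fold change was 1.25 with a standard error of 0.114 (edgeR adjusted p = 5.0e-11), or 2.37-fold, from 70 to 94 counts in each control library. Its change was larger than that of 98.7% of tested genes. FOSB overlaps ERCC1 on the opposite strand, and the use of strand in counting is not given in the sources used here. ERCC1 itself changed by -0.08 on the log2 scale (adjusted p = 0.12).

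FOS, the partner of JUN in classical AP-1, lies on chromosome 14 from 75278774 to 75282230 (plus strand). It was at 16.5, 15.8, 13.4 and 17.6 CPM in control and at 21.8, 24.9, 23.0 and 22.0 CPM in ELAPOR1 libraries. The lowest ELAPOR1 library exceeded the highest control library. The log2 fold change was 0.53 with a standard error of 0.0808 (edgeR adjusted p = 1.5e-06). FOSL2, a FOS-related subunit, lies on chromosome 2 from 28392448 to 28417312 (plus strand). Its libraries came close to each other, with 57.7, 50.9, 54.6 and 45.4 CPM in control and 59.4, 62.6, 67.4 and 66.7 CPM in ELAPOR1. The rise was 0.29 on the log2 scale with a standard error of 0.0594 and passed the test (edgeR adjusted p = 2.3e-04).

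The JUN genes went in different directions. JUN, a strong transactivator, is a gene without introns on chromosome 1 from 58780788 to 58784327 (minus strand). It was at 22.3, 17.6, 22.6 and 23.0 CPM in control and at 43.2, 39.1, 37.4 and 37.5 CPM in ELAPOR1 libraries. Control replicate 2 was the lowest, and every ELAPOR1 library lay above every control. The log2 fold change was 0.88 with a standard error of 0.0724 (edgeR adjusted p = 1.1e-11), or 1.84-fold, and larger than that of 96.6% of tested genes.

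JUNB, which can oppose JUN at some promoters, lies on chromosome 19 from 12791496 to 12793315 (plus strand) and has no intron. It was at 140.3, 160, 152 and 147 CPM in control and at 124, 126, 131 and 139.5 CPM in ELAPOR1 libraries. The groups almost touched, at 140.3 CPM in control replicate 1 and 139.5 CPM in ELAPOR1 replicate 4. The log2 fold change was -0.20 with a standard error of 0.0406 (edgeR adjusted p = 1.3e-04). JUNB overlaps HOOK2 on the opposite strand, which changed by -0.09 (adjusted p = 0.087). JUND, the JUN protein usually present in unstimulated cells, lies on chromosome 19 from 18279760 to 18281622 (minus strand). Its values were 30.1, 34.1, 30.8 and 30.9 CPM in control and 24.7, 28.3, 32.3 and 27.5 CPM in ELAPOR1 libraries. The groups overlapped through ELAPOR1 replicate 3, and the change of -0.16 on the log2 scale, with a standard error of 0.0693, did not pass (edgeR adjusted p = 0.057). Without ELAPOR1 replicate 3 it was -0.23 (adjusted p = 0.0097) and without control replicate 1 it was -0.19 (adjusted p = 0.028), so the call for JUND rests on single libraries.

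EGR1, a zinc finger factor and a standard readout of serum response factor and MAP kinase activity, lies on chromosome 5 from 138465490 to 138469315 (plus strand). Its level was 54.8, 58.95, 51.2 and 55.4 CPM in control and 79.3, 79.97, 87.0 and 86.8 CPM in ELAPOR1 libraries. The groups were clearly apart. The log2 fold change was 0.60 with a standard error of 0.0477 (edgeR adjusted p = 2.2e-12), or 1.51-fold. ATF3, a stress-induced factor that dimerises with JUN proteins, lies on chromosome 1 from 212565334 to 212620777 (plus strand). It went from 44.9, 47.6, 48.2 and 46.6 CPM to 54.6, 59.7, 61.98 and 57.1 CPM, with no overlap. Its rise was 0.32 on the log2 scale with a standard error of 0.05 (edgeR adjusted p = 3.3e-06).

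Both IER genes fell. IER3, a regulator of survival under stress, lies on chromosome 6 from 30743199 to 30744554 (minus strand). It was at 140.3, 143, 145 and 151 CPM in control and at 106, 109, 107 and 104 CPM in ELAPOR1 libraries. This was the largest fall among the 10 genes, with a narrow spread in both groups. The log2 fold change was -0.44 with a standard error of 0.0359 (edgeR adjusted p = 3.1e-12), or 0.736-fold. IER2, a nuclear protein of less defined function, lies on chromosome 19 from 13150415 to 13154908 (plus strand). It was at 129.5, 136, 135 and 144 CPM in control and at 125, 119.9, 122 and 126 CPM in ELAPOR1 libraries. The groups stood close together without overlap, and the log2 fold change was -0.14 with a standard error of 0.0369 (edgeR adjusted p = 0.0020).

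The genes on the lower side had GC-rich transcripts, at 69.7% GC for JUND, 64.9% for JUNB, 61.7% for IER2 and 58.5% for IER3, against 46.7% to 57.7% for the 6 that rose. Over all tested genes, the median log2 fold change was -0.10 for transcripts above 65% GC and -0.06 for those of 60 to 65%. It was -0.02 for those of 55 to 60% and 0.01 for those of 50 to 55%. With trends against GC content and transcript length removed, an alternative chosen after seeing the data, the change of JUNB was -0.10 (edgeR adjusted p = 0.027), that of IER2 -0.09 (adjusted p = 0.012) and that of JUND -0.05 (adjusted p = 0.60). The change of IER3 was then -0.36 (edgeR adjusted p = 1.8e-14). FOSB stayed at 1.25, JUN at 0.88 and EGR1 at 0.60 on the log2 scale, and 9 of the 10 genes passed. JUNB, JUND and IER2 also lie on the same arm of chromosome 19, and the 39 to 45 tested genes averaging 5 CPM or more within 1 Mb of each had median log2 fold changes between -0.02 and -0.01. Around IER3, 54 such genes had a median of -0.08, with 8 higher and 20 lower. The part of position in the changes was not tested.

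Compared per length, as CPM per kilobase of merged exons, the genes kept a wide range of levels. In control libraries the order was IER3 (107 ± 3.22, SD, n = 4), JUNB (82.3 ± 4.52), IER2 (44.3 ± 1.91), EGR1 (17.6 ± 1.01), JUND (16.9 ± 0.943), ATF3 (11.6 ± 0.367), FOSL2 (7.29 ± 0.735), JUN (6.04 ± 0.710), FOS (4.88 ± 0.551) and FOSB (0.872 ± 0.0895). The libraries of EGR1 and JUND overlapped, as did those of FOSL2 and JUN and those of JUN and FOS, so these neighbours did not differ beyond their spread. The 3 genes that fell were the 3 with the highest control level, and the genes with the 3 lowest levels, JUN, FOS and FOSB, were among those that rose. In ELAPOR1 libraries EGR1, at 26.5 ± 1.34, stood clear of JUND, at 15.1 ± 1.69, and JUN, at 11.1 ± 0.763, stood above FOSL2, at 8.94 ± 0.524 CPM per kilobase. With the longest transcript as the length instead, ATF3 was at 22.3 CPM per kilobase in control, above EGR1.

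**Figure D3:**
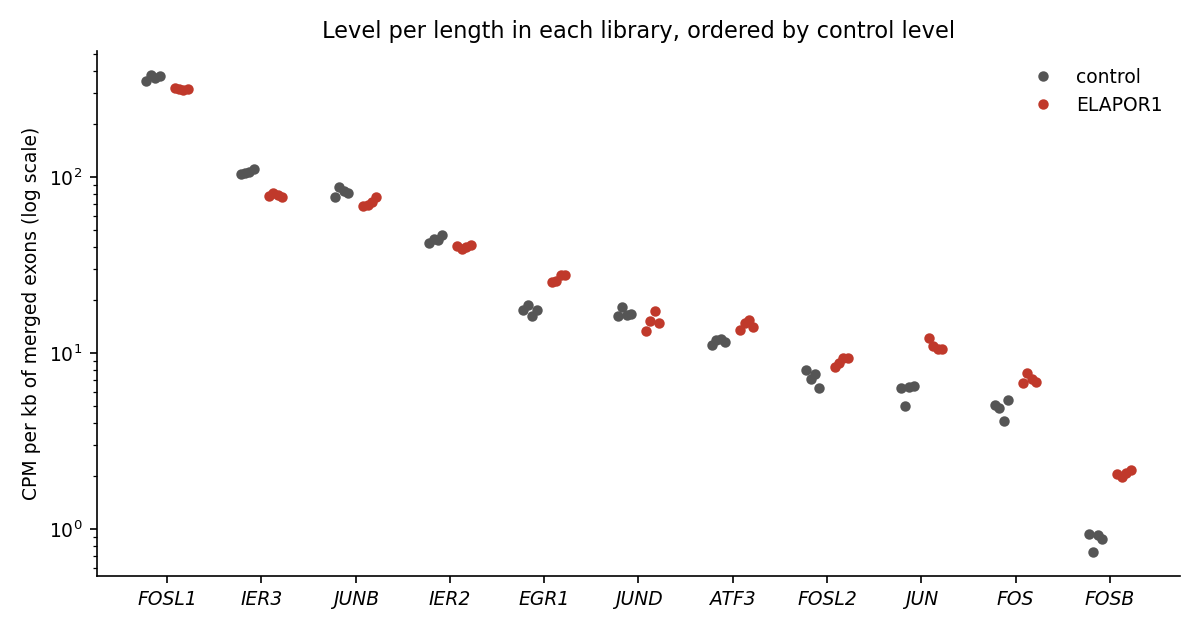
CPM per kilobase of merged exons (log axis) of FOSL1 and the 10 genes in each control and ELAPOR1 library (points), ordered by control level. The most abundant of the 10, IER3 at 107 in control, and FOSB at 0.872 mark the ends of their range, and FOSL1 lies above all of them.

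Within the JUN family, JUN made up 5.77 ± 0.87% of the summed level per kilobase of JUN, JUNB and JUND in control and 11.4 ± 1.2% in ELAPOR1 (SD over 4 libraries each). Its share ran from 4.49 to 6.34% in control and from 10.4 to 13.0% in ELAPOR1, with no overlap. JUNB held 78.2 ± 0.73% and 73.1 ± 1.4%, and JUND 16.1 ± 0.4% and 15.5 ± 1.5%. The summed level was 105 ± 4.81 in control and 97.7 ± 3.74 CPM per kilobase in ELAPOR1 libraries. JUN gained share, while JUNB remained the most abundant of the family in both groups.

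The FOS family was dominated by FOSL1, the FOS-related subunit tied to sustained RAS and ERK signalling, which is not among the 10 genes. FOSL1 was at 659, 718, 684 and 703 CPM in control and at 601.5, 597, 591 and 598 CPM in ELAPOR1 libraries. It fell by 0.21 on the log2 scale with a standard error of 0.0285 (edgeR adjusted p = 1.7e-07), with all ELAPOR1 libraries below all controls. Per kilobase it made up 96.6 ± 0.29% of the summed FOS family in control and 94.6 ± 0.23% in ELAPOR1 libraries. FOS went from 1.29 ± 0.15% to 2.12 ± 0.13% of that sum, FOSL2 from 1.93 ± 0.25% to 2.68 ± 0.17% and FOSB from 0.231 ± 0.03% to 0.619 ± 0.024% (SD over 4 libraries). The 3 members that rose thus remained minor transcripts of the family in both groups, and the family sum was 379 ± 12.9 in control and 334 ± 1.75 CPM per kilobase in ELAPOR1 libraries.

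**Figure D4:**
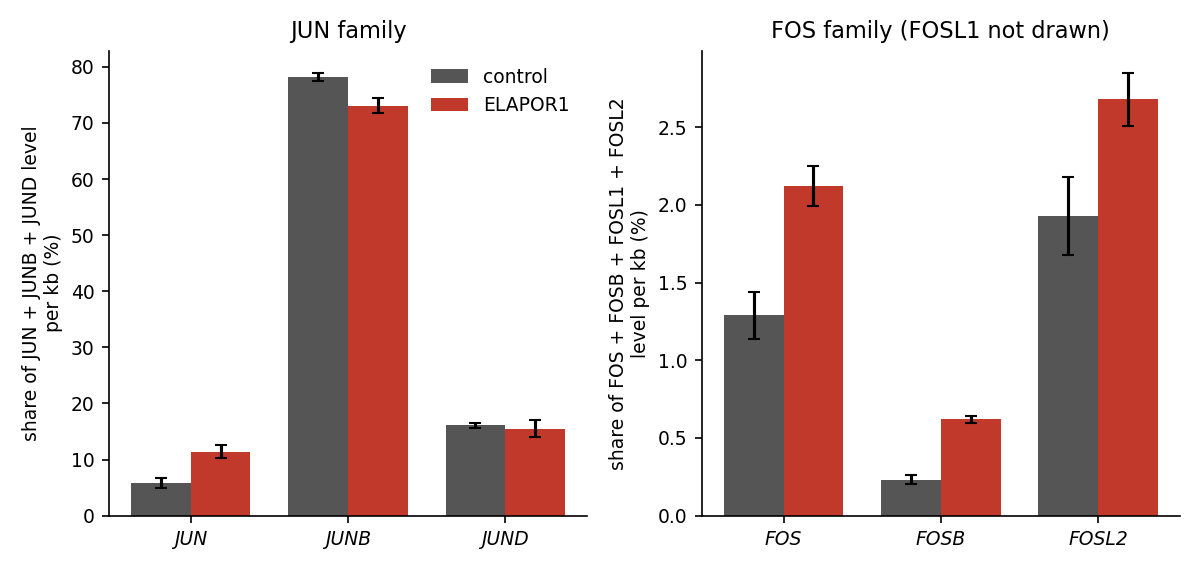
Share of the summed level per kilobase within the JUN family (left) and the FOS family (right) in control and ELAPOR1 libraries; bars are means and error bars SD over 4 libraries. JUN went from 5.77 to 11.4%, and FOSL1, not drawn, held 96.6 and 94.6% of the FOS family.

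Within the groups, pairs of the 10 genes deviated in the same direction about as often as in opposite directions. After each group's mean was subtracted from log2(CPM + 1), Pearson's r over the 8 libraries was positive for 23 of the 45 pairs and negative for 22. It ranged from -0.78 for JUN and EGR1 to 0.87 for JUND and ATF3. These values rest on 8 libraries that share their scaling and are a description. Counting noise is part of each deviation, so they cannot decide whether the genes vary together. The mean deviation of the 10 genes ran from -0.043 in ELAPOR1 replicate 1 to 0.037 in ELAPOR1 replicate 3 on the log2 scale. Among 10693 other genes, those whose deviations were most like it were AHCYL2 (r = 0.967), MSH5 (0.961), USP13 (0.955), TBC1D17 (0.949) and PAX6 (0.944). They are the highest of 10693 values from 8 libraries, and how many chance would put as high was not tested.

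Other AP-1 and related bZIP genes went in both directions. Of 15 listed, 13 were tested and 8 passed, 3 higher and 5 lower, with a median log2 fold change of -0.13. Of all tested genes, 44.7% passed, 22.6% higher and 22.1% lower. Besides FOSL1, the small MAF proteins, which pair with NRF factors, fell: MAFK from 90.0 ± 6.46 to 71.3 ± 3.76 CPM, MAFG from 98.1 ± 1.70 to 77.7 ± 3.63 CPM and MAFF from 43.2 ± 2.15 to 37.0 ± 0.633 CPM (SD over 4 libraries, edgeR adjusted p = 8.7e-07, 2.8e-08 and 0.0010).

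Other immediate early genes were mixed. Of 40 listed, 37 were tested and 24 passed (44.7% of all tested genes did), 15 higher and 9 lower, with a median of 0.09. RHOB, a stress-induced small GTPase, rose from 8.34 ± 1.06 to 18.2 ± 1.54 CPM (log2 fold change 1.13, edgeR adjusted p = 1.3e-11). KLF10, a TGF-beta-inducible repressor, rose from 43.3 ± 0.924 to 68.7 ± 2.53 CPM (0.67, adjusted p = 1.0e-13), and SGK1, a serum- and glucocorticoid-induced kinase, from 5.55 ± 0.880 to 8.66 ± 1.02 CPM (0.64, adjusted p = 1.2e-04). CCN1, a secreted matricellular protein and a serum response target, fell from 1163 ± 38.5 to 720.3 ± 7.09 CPM (-0.69, adjusted p = 2.9e-20). EGR3, singled out after its values were seen, had 0 to 5 counts in control and 16 to 28 in ELAPOR1 libraries. It had enough counts to test only through the ELAPOR1 libraries, so its p-value is not given. MYC, KLF4, DUSP1 and NR4A1, singled out in the same way, did not pass, at -0.03, -0.0015, 0.10 and -0.13 on the log2 scale (adjusted p = 0.58, 0.98, 0.31 and 0.21).

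The genes listed for ERK feedback and output, not all of them specific to ERK, went both ways. Of 28 listed, 26 were tested and 17 passed (44.7% of all tested genes did), 8 higher and 9 lower, with a median of 0.03. DUSP6, the ERK phosphatase induced by ERK itself, fell from 37.4 ± 2.21 to 26.5 ± 0.697 CPM (-0.50, edgeR adjusted p = 2.7e-08). ETV5, an ETS factor downstream of ERK, fell by 0.35 on the log2 scale (adjusted p = 3.2e-07), and the phosphatase DUSP8 fell by 0.42 (adjusted p = 6.9e-05). DUSP7 rose from 20.2 ± 1.77 to 27.7 ± 1.45 CPM (0.46, adjusted p = 2.6e-06).

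Of 9 genes listed with the serum response and ternary complex factors, 8 were tested and 5 passed, 1 higher and 4 lower. The list also held NAB1 and NAB2, corepressors of EGR proteins, and NAB2 is among the 4 lower. The median was -0.06, and 44.7% of all tested genes passed. SRF fell from 77.8 ± 2.21 to 69.0 ± 0.935 CPM (log2 fold change -0.17, edgeR adjusted p = 9.2e-04), as did its partner ELK4 from 108 ± 5.25 to 95.4 ± 1.53 CPM (-0.18, adjusted p = 2.4e-04). The coactivator MRTFB rose from 41.0 ± 2.24 to 62.9 ± 2.70 CPM (0.62, adjusted p = 5.4e-12), and the 10 tested genes averaging 5 CPM or more within 1 Mb of its start, itself included, had a median of 0.39. Of 20 MAP kinase pathway genes, 19 were tested and 8 passed, 3 higher and 5 lower, with a median of -0.03. The share that passed was no larger than the 44.7% of all tested genes. The ERK kinases MAP2K1 and MAP2K2 fell by 0.28 and 0.23 on the log2 scale (edgeR adjusted p = 1.0e-08 and 4.7e-06), and ERK1 itself, MAPK3, fell by 0.20 (adjusted p = 3.0e-04). RPS6KA4, a kinase that acts on CREB and chromatin at immediate early genes, rose from 119 ± 3.24 to 160 ± 4.72 CPM (0.43, adjusted p = 4.1e-12).

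Of 28 genes known as AP-1 targets, 16 were tested and 13 passed (44.7% of all tested genes did), 7 higher and 6 lower. The median was 0.04. LAMB3, a laminin chain, rose from 192 ± 8.69 to 321 ± 8.06 CPM (log2 fold change 0.74, edgeR adjusted p = 5.2e-19) and CAV1, caveolin, from 201 ± 5.44 to 286 ± 8.61 CPM (0.51, adjusted p = 5.1e-15). HMOX1, heme oxygenase, fell from 19.2 ± 1.496 to 9.26 ± 0.308 CPM (-1.06, adjusted p = 4.7e-12). The matrix metalloproteinases MMP1, MMP3, MMP7, MMP9, MMP10 and MMP13 had at most 5 counts in any library and were not tested. MMP14, singled out after its values were seen, went from 1.93 ± 0.258 to 0.515 ± 0.149 CPM (-1.90). It had enough counts to test only through the control libraries, so its p-value is not given. CXCL8, singled out in the same way, rose from 0.949 ± 0.334 to 3.64 ± 0.251 CPM (1.94, edgeR adjusted p = 5.0e-08).

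Heat shock genes, which respond to handling and protein stress as immediate early genes do, were also given. Of 14 listed, 14 were tested and 10 passed (44.7% of all tested genes did), 8 higher and 2 lower, with a median of 0.11. HSP90AA1 rose by 0.35, DNAJA1 by 0.27, HSPH1 by 0.24 and HSPD1 by 0.18 on the log2 scale (edgeR adjusted p = 2.9e-13, 2.0e-09, 3.9e-07 and 5.8e-07). The 2 that fell, singled out after their values were seen, were HSPA1A (-0.15, edgeR adjusted p = 0.031) and HSPB1 (-0.12, adjusted p = 0.0034). HSPA1B, HSPA6, HSPA8 and DNAJB4 did not pass. The part of this list's change in that of the immediate early genes was not tested.

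**Figure D5:**
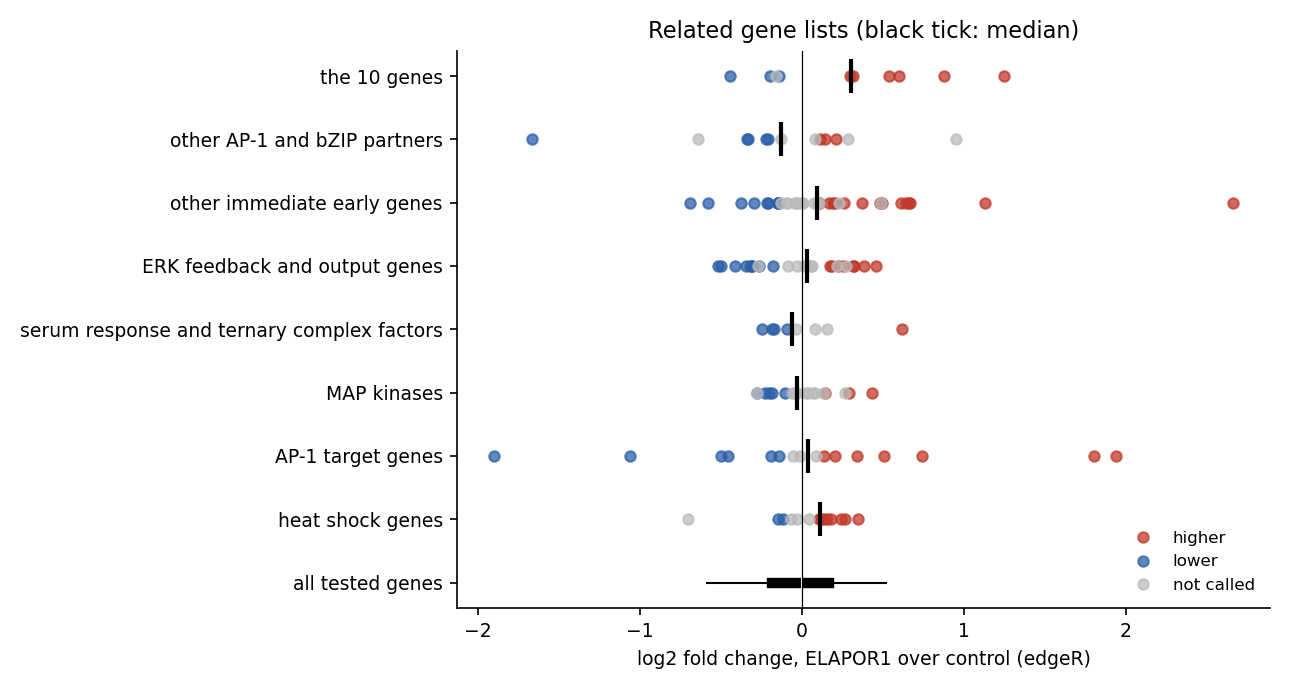
Log2 fold change (horizontal axis) of each tested gene of the 10 genes and the 7 related lists (points, coloured by call; black tick, median), with all tested genes as a bar (thick, middle 50%; thin, middle 90%). The medians lie between -0.13 and 0.30.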

How the data were processed

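The authors deposited expected counts per gene for 8 libraries, without scaling between libraries. About 15% of values above 0 were fractional. Per the submitters' processing notes, cutadapt, STAR, RSEM, DESeq2 and hg38 were used; versions, annotation and use of strand are not given in the sources used here. No per-sample column was left unmapped.

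Expected counts were rounded to whole numbers; the test was edgeR 4.0.16 under R 4.3.3 (filterByExpr, TMM, robust glmQLFit and glmQLFTest, two-sided, no covariate), with Benjamini-Hochberg adjustment over 13860 genes and a threshold of 0.05. The standard error is the size of the log2 fold change divided by the square root of F. The common biological coefficient of variation was 0.0401. The procedure was tested on simulated counts. Locations, merged exon lengths and GC content are from GENCODE release 29 (GRCh38). Alternatives used DESeq2 1.42.0 and limma 3.58.1. Figures were drawn with matplotlib 3.10.9.

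The members and lists were chosen with earlier results of these data known. Named from each of the 7 related lists were up to 4 genes that passed, averaged 5 CPM or more and had groups that did not overlap, the largest changes first, and for likeness the 5 nearest genes. Genes singled out otherwise are marked, and 1 gene that this rule names is not reported here.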

Additional observations from a re-analysis of the deposited data

Results flagged for a closer look

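In 1 of the 20 groups of 4 libraries examined (10 genes in each group), the lowest or highest library was separated from its nearest neighbour by over 0.829 of the range of that group. This was JUN in control replicate 2, at 17.6 CPM where the remaining control libraries held 22.3 to 23.0 CPM, a gap of 0.88 of the range. About 1 such group in 20 is found by chance. Leaving out each library in turn gave a log2 fold change of JUN between 0.80 and 0.91.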

How the results depend on the processing

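Only the removal of GC and length trends was chosen after seeing the data. The 9 calls among the 10 genes kept direction and call under other scalings, tests and filters, without ELAPOR1 in the table and with each library left out; the number called was 9 or 10, the tenth being JUND. JUND changed by -0.17 with upper-quartile scaling (edgeR adjusted p = 0.045) and with limma-voom (adjusted p = 0.046), and by -0.23 to -0.10 with a library left out. Against a 1.5-fold change (glmTreat), 2 of the 10 genes passed, FOSB and JUN; FOS (0.53), FOSL2 (0.29), JUNB (-0.20), EGR1 (0.60), IER2 (-0.14), IER3 (-0.44) and ATF3 (0.32) did not. That test called 0 other AP-1 and bZIP genes, 3 other immediate early genes, 0 ERK feedback genes, 0 serum response genes, 0 MAP kinases, 5 AP-1 targets and 0 heat shock genes, and 215 of all tested genes. Under the replicate block 9 of the 10 genes were called, 6 higher and 3 lower. Same-numbered libraries did not deviate together (r from -0.112 to 0.0355). That cannot decide whether they were prepared together, because deviations within a group hold counting noise. FOSB rests on the fewest counts, 70 to 209 a library.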
